A study of Mus musculus with 6 samples.

Results

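Transcription factors that direct the birth, migration and identity of cortical inhibitory interneurons were examined in bulk RNA sequencing of mouse cortex at embryonic day 18. The 10 genes were Dlx1, Dlx2, Dlx5, Lhx6, Sox6, Satb1, Sp8, Sp9, Prox1 and Nr2f2, taken by gene symbol from a table of 55401 gene rows, and each of the 10 matched exactly 1 row. The libraries came from 3 Csmd3 knockout samples, homozygous for the disrupted gene, and 3 wild-type samples. All 6 were C57BL/6 embryos from matings of heterozygous parents. The sources used here state neither which exons of Csmd3 are missing nor the litter, sex or number of embryos behind each sample, so p-values measure the spread between these samples. Deposited totals ran from 54244288 to 68269607 estimated counts in the knockout libraries and from 57531791 to 60716370 in the wild-type libraries.

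Interneurons of the cortex are not born there. They arise in the ganglionic eminences of the ventral forebrain and migrate tangentially into the cortex, where they release GABA, the main inhibitory transmitter. The homeodomain factors Dlx1, Dlx2 and Dlx5 act across the eminences and switch on the genes of GABA synthesis. The medial ganglionic eminence (MGE) gives rise to somatostatin and parvalbumin interneurons through Lhx6 and, downstream of it, Sox6 and Satb1. The caudal ganglionic eminence (CGE) gives rise to interneurons of the vasoactive intestinal peptide and reelin types, which carry Sp8, Prox1 and Nr2f2 (also called COUP-TFII).

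None of the 10 factors passed the test between genotypes. With edgeR's quasi-likelihood test and Benjamini-Hochberg adjustment over 19844 tested genes, 0 of 10 were called higher and 0 of 10 lower at an adjusted p of 0.05, where 5.21% of all tested genes were higher and 2.53% lower (7.74% in either direction). At an unadjusted p of 0.05, 3 of 10 passed (Dlx1, Sox6 and Prox1), where 22.2% of all tested genes did. DESeq2 and limma-voom each called 1 of 10 higher, Sox6 in both cases, and 0 lower (higher calls over all genes were 6.37% with DESeq2 and 5.84% with limma-voom). The median log2 fold change of the 10, knockout over wild type, was -0.20, against 0.00 over all tested genes. Sox6 and Sp9 had fold changes above 0, as did 9984 of the 19844 tested genes. Fewer interneurons and less RNA of a factor per interneuron cannot be told apart in bulk tissue.

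**Figure D1:**
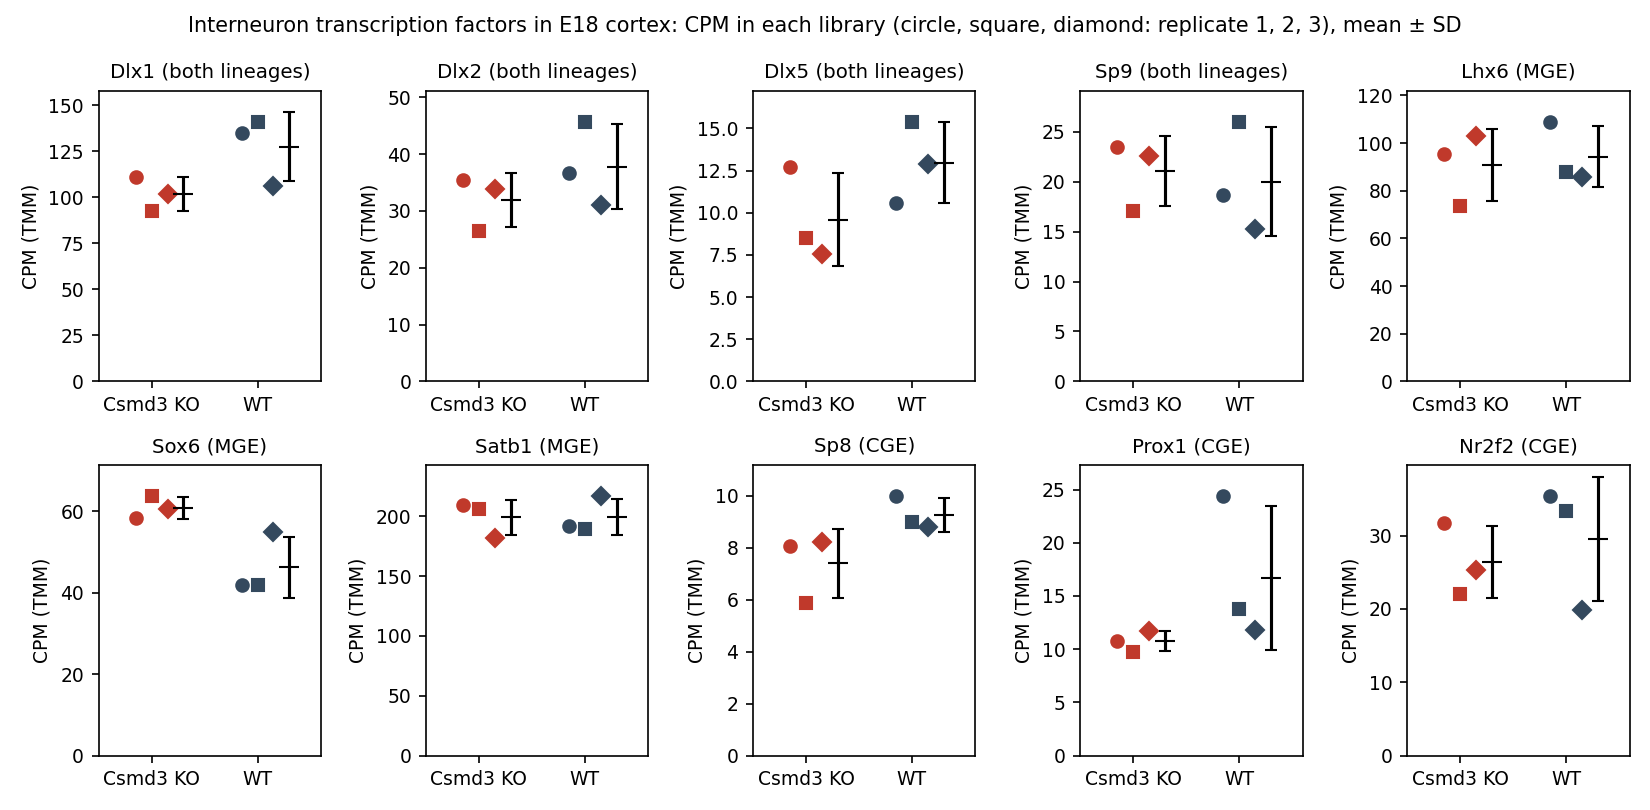
Each panel plots 1 factor, with CPM after TMM scaling on the vertical axis from 0 and the 3 knockout libraries left of the 3 wild-type libraries. Circles, squares and diamonds mark replicates 1, 2 and 3, and the bar beside them gives the mean ± SD. Sox6 is the only panel in which every knockout library lies above every wild-type library, and Sp8 and Prox1 are the panels in which every knockout library lies below.

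The knockout and wild-type values separated for 3 of the 10 factors. Levels are in CPM, the estimated counts scaled to a common library size after TMM normalisation. Sox6 was higher in every knockout library, and Sp8 and Prox1 were lower in every knockout library. Groups that do not overlap were common in these data, at 29.1% of all tested genes (15.6% higher and 13.5% lower), so a share of 3 in 10 is near the background.

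The Dlx genes, which act in both lineages, were lower on average in knockout without passing the test. Dlx1 (ENSMUSG00000041911.3, chromosome 2, 71528113 to 71533981, plus strand, mm10) had 111, 92.7 and 102 CPM in knockout libraries 1, 2 and 3, against 135, 141 and 106 CPM in wild type. The 2 ranges overlapped because wild-type library 3 lay below knockout library 1. Dlx1 had a log2 fold change of -0.32 (SE 0.11, 95% interval -0.58 to -0.07, adjusted p = 0.131). Without wild-type library 3 it was -0.44 and passed (adjusted p = 0.0156). An antisense gene, Dlx1as, overlaps 6.21% of the exon length of Dlx1, and read strand is not stated. Dlx1as itself was at 10.1 ± 0.523 CPM in knockout and 10.7 ± 1.99 CPM in wild type (SD, n = 3 each).

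Dlx2 (ENSMUSG00000023391.8, chromosome 2, 71543408 to 71546754, minus strand, mm10) lies 9.43 kb from Dlx1 and points towards it. Its level was 35.4, 26.5 and 33.8 CPM in knockout, against 36.7, 45.7 and 31.0 CPM in wild type, a log2 fold change of -0.25 (SE 0.16, 95% interval -0.61 to 0.11, adjusted p = 0.423). Both genes of the pair were lowest in knockout library 2 and highest in wild-type library 2. The rest of the order differed, since knockout library 3 and wild-type library 3 changed places. Knockout library 2 was also the lowest for Lhx6, Sp8 and Prox1, and wild-type library 2 the highest for Dlx5 and Sp9. The sequence around the start of Dlx1 and Dlx2 is shown because the pair shared its lowest and highest library. These are RefSeq windows (GRCm38.p6, from 250 bases before to 50 after the start) at chr2:71529195-71529494 on the plus strand for Dlx1 and chr2:71546705-71547004 on the minus strand for Dlx2, with capitals marking GGGCGG or its reverse complement CCGCCC, the GC box bound by the Sp family to which Sp8 and Sp9 belong:
Dlx1: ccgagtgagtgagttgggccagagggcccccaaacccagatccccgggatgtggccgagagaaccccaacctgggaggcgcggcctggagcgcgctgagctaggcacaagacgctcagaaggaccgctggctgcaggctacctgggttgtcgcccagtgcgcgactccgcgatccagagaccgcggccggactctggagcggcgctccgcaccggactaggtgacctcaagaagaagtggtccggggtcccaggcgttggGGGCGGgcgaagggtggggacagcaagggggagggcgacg
Dlx2: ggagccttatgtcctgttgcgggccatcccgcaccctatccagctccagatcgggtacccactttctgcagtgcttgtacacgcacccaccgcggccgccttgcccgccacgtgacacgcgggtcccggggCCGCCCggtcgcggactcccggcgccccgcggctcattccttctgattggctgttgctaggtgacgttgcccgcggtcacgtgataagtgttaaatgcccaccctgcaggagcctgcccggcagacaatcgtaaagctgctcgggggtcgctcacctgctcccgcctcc
Each window holds 1 GC box. Windows were available for 9 of the 10 factors, 23 windows in all counting alternative starts, and 10 of the 23 held a GC box on either strand, against 35.7% of 32851 mouse windows of the same length. The homeodomain core TAATTA, which reads the same on both strands, stood in 1 of the 23, a window of Sp8, against 5.29% of all windows. A match is only a run of letters and no binding was measured.

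Dlx5 (ENSMUSG00000029755.10, chromosome 6, 6877805 to 6882085, minus strand, mm10) acts later in the Dlx cascade. It had 12.7, 8.53 and 7.56 CPM in knockout, against 10.6, 15.4 and 12.9 CPM in wild type. Knockout library 1 lay within the wild-type range and the other knockout libraries below it. The log2 fold change of -0.44 had a wide interval (SE 0.21, 95% interval -0.92 to 0.05, adjusted p = 0.275). It was -0.69 without knockout library 1 and -0.29 without knockout library 3.

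Sp9 is a zinc finger factor of the ganglionic eminences. Sp9 (ENSMUSG00000068859.5, chromosome 2, 73271925 to 73284706, plus strand, mm10) had 23.5, 17.1 and 22.6 CPM in knockout, against 18.7, 26.0 and 15.3 CPM in wild type. The groups overlapped widely, and the highest and the lowest value were both in wild type. This gave a log2 fold change of 0.07 (SE 0.20, 95% interval -0.39 to 0.54, adjusted p = 0.878). Its sign turned without wild-type library 3 (-0.08) or knockout library 1 (-0.01). The opposite-strand gene Cir1 covers 5.35% of the exon length of Sp9 and was at 33.6 ± 0.787 CPM in knockout and 32.1 ± 4.03 CPM in wild type (SD, n = 3 each).

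Among the MGE factors, Lhx6 and Satb1 had fold changes near 0 and Sox6 was the member with the smallest p. Lhx6 (ENSMUSG00000026890.19, chromosome 2, 36081953 to 36105408, minus strand, mm10), the LIM homeodomain factor that specifies MGE interneurons, had 95.5, 73.8 and 103 CPM in knockout, against 109, 88.0 and 85.9 CPM in wild type. The groups overlapped, with a log2 fold change of -0.05 (SE 0.14, 95% interval -0.37 to 0.26, adjusted p = 0.868). Satb1 (ENSMUSG00000023927.15, chromosome 17, 51736187 to 51833290, minus strand, mm10), a chromatin organiser needed for the maturation of somatostatin interneurons, had 209, 206 and 182 CPM in knockout, against 192, 189 and 217 CPM in wild type. Its log2 fold change of -0.00 had the narrowest interval of the 10 (SE 0.08, 95% interval -0.19 to 0.18, adjusted p = 0.99).

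Sox6 (ENSMUSG00000051910.13, chromosome 7, 115470872 to 116038796, minus strand, mm10), an SRY-related factor that positions MGE interneurons in the cortical layers, was higher in each knockout library. It had 58.3, 63.7 and 60.5 CPM in knockout, against 41.9, 41.9 and 54.9 CPM in wild type. The groups did not overlap, and wild-type library 3 stood nearest to the knockout values. The log2 fold change was 0.40 (SE 0.11, 95% interval 0.14 to 0.65), with an adjusted p of 0.0659 that missed the threshold. Sox6 passed with DESeq2 (adjusted p = 0.025), with limma-voom (0.0253), without a filter on low counts (0.0486, where 3.55% of genes were called higher) and without wild-type library 3 (log2 fold change 0.54, adjusted p = 0.00511). With each other library left out it was between 0.32 and 0.43 and did not pass.

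Sox6 is also known from cortical progenitors, oligodendrocyte precursors and erythroid cells, whose markers moved unevenly. Of 10 markers of radial glia and intermediate progenitors, 3 rose (Pax6, Neurog2 and Btg2) and 0 fell, and their summed level was 1030 to 1180 CPM in knockout against 816 to 972 CPM in wild type. DESeq2 and limma-voom each called 6 of the 10 higher, while with 1 library left out edgeR kept Btg2 in every case and lost Pax6 or Neurog2 in some. Of 8 genes of dividing cells 6 rose, with sums of 598 to 613 CPM in knockout against 353 to 440 CPM in wild type. Wild-type library 3 had the highest sum of the wild-type libraries in both lists, as it did for Sox6. Of 8 oligodendrocyte lineage markers 1 rose (Pdgfra) and 3 fell (Olig1, Olig2 and Gpr17), with sums of 90.2 to 107 CPM in knockout against 103 to 136 CPM in wild type. The 9 erythroid genes gave 0 calls with edgeR, DESeq2 or limma-voom (1 at an unadjusted edgeR p of 0.05), and their sums overlapped (1890 to 2200 CPM in knockout, 1520 to 2100 CPM in wild type). The part of these cells in the level of Sox6 was not tested.

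The CGE factors had log2 fold changes below 0, and none of the 3 passed. Sp8 (ENSMUSG00000048562.7, chromosome 12, 118846329 to 118852576, plus strand, mm10), a zinc finger factor of CGE and olfactory bulb interneurons, had 8.08, 5.88 and 8.24 CPM in knockout, against 10, 9 and 8.80 CPM in wild type. The groups did not overlap, with knockout library 2 furthest down. The log2 fold change was -0.33 (SE 0.16, 95% interval -0.69 to 0.04, adjusted p = 0.286), and -0.18 without knockout library 2.

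Prox1 had the largest fold change of the 10, and 1 library set its size. Prox1 (ENSMUSG00000010175.13, chromosome 1, 190118035 to 190170714, minus strand, mm10), a homeobox factor of CGE interneurons that also marks dentate granule neurons and lymphatic endothelium, had 10.8, 9.78 and 11.7 CPM in knockout, against 24.4, 13.8 and 11.8 CPM in wild type. Wild-type library 1 lay far above the rest, while wild-type library 3 and knockout library 3 were almost equal. The log2 fold change was -0.63 (SE 0.26, 95% interval -1.24 to -0.03, adjusted p = 0.205), and without wild-type library 1 it was -0.27 (adjusted p = 0.392). The opposite-strand gene Prox1os, which covers 1.59% of the exon length of Prox1, was at 0.384 ± 0.148 CPM in knockout and 0.782 ± 0.17 CPM in wild type (SD, n = 3 each). The summed level of 8 dentate granule markers was 119 to 123 CPM in knockout against 102 to 116 CPM in wild type. Of 5 tested lymphatic markers 3 rose. The summed level of the lymphatic list was 48.7 to 55.5 CPM in knockout against 23.3 to 28.8 CPM in wild type. The part of dentate and lymphatic cells in the level of Prox1 was not tested.

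Nr2f2 (ENSMUSG00000030551.14, chromosome 7, 70351944 to 70366735, minus strand, mm10), an orphan nuclear receptor of CGE interneurons and of venous endothelium, had 31.7, 22.1 and 25.3 CPM in knockout, against 35.4, 33.3 and 19.8 CPM in wild type. The wild-type values were split, with library 3 the lowest of all 6. The log2 fold change was -0.16 (SE 0.24, 95% interval -0.72 to 0.40, adjusted p = 0.763), and -0.38 without wild-type library 3. B130024G19Rik on the opposite strand covers 7.46% of the exon length of Nr2f2 and was at 1.5 ± 0.535 CPM in knockout and 0.801 ± 0.383 CPM in wild type (SD, n = 3 each). Beside Nr2f2, all 12 meningeal and mural markers rose, with sums of 686 to 861 CPM in knockout against 108 to 119 CPM in wild type. Of 10 endothelial markers 7 rose, with sums of 360 to 452 CPM in knockout against 206 to 236 CPM in wild type. Their part in the level of Nr2f2 was not tested.

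Levels of different factors were compared per length, as CPM divided by the kilobases of exon annotated over all transcripts of the gene. That length was 19 kb for Satb1 and 5.4 kb for Dlx1, and the transcripts present were not determined. By CPM alone Satb1 stood highest, at 199 ± 14.6 in knockout and 199 ± 15.1 in wild type (SD, n = 3 each). On the length scale Dlx1 and Lhx6 had the highest means. They stood at 18.9 ± 1.66 and 18.9 ± 3.13 CPM per kb in knockout and 23.6 ± 3.46 and 19.6 ± 2.6 CPM per kb in wild type (SD, n = 3 each). Dlx2 (11.2 ± 1.67 in knockout, 13.2 ± 2.58 in wild type) and Satb1 (10.5 ± 0.768 in knockout, 10.5 ± 0.793 in wild type) followed in CPM per kb. Sp8 (1.62 ± 0.29 in knockout, 2.03 ± 0.144 in wild type) and Prox1 (1.28 ± 0.112 in knockout, 1.99 ± 0.805 in wild type) had the lowest means. Within each genotype the libraries separated Lhx6 from Dlx2, Satb1 from Dlx5 and the last of the middle group from Sp8. Prox1, at up to 2.91 CPM per kb in wild-type library 1, overlapped Nr2f2 and Sox6 in wild type. The values of Dlx1 and Lhx6, of Dlx2 and Satb1, and of Sp8 and Prox1 overlapped. The middle group held Dlx5, Sp9, Sox6 and Nr2f2. Sox6 stood above Nr2f2 in knockout without overlap, at 4.10 ± 0.183 against 3.06 ± 0.566 CPM per kb. In wild type Nr2f2 (3.42 ± 0.983 CPM per kb) and Sox6 (3.12 ± 0.505 CPM per kb) overlapped.

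**Figure D2:**
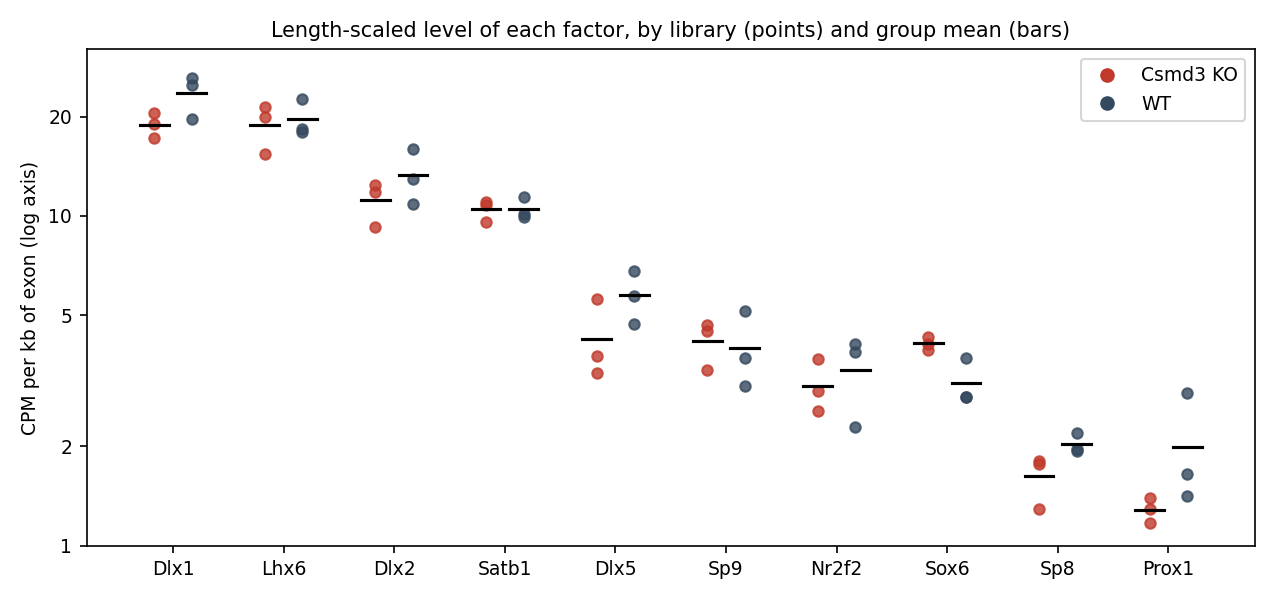
CPM per kb of exon is plotted on a log axis for each factor, ordered by the wild-type mean, with knockout libraries left of wild-type libraries and bars at the group means. Dlx1 and Lhx6 lie near 20 CPM per kb in both genotypes, and Sp8 and Prox1 have the lowest means.

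The MGE factors were set against the CGE factors within each library. The mean log2 CPM of Lhx6, Sox6 and Satb1 was 6.72, 6.63 and 6.70 in knockout, against 6.58, 6.47 and 6.65 in wild type. For Sp8, Prox1 and Nr2f2 it was 3.81, 3.44 and 3.75 in knockout, against 4.36, 4.01 and 3.67 in wild type. The MGE mean thus differed by 0.11 and the CGE mean by -0.34, knockout minus wild type. The MGE minus CGE difference was 2.90, 3.19 and 2.95 in knockout, against 2.22, 2.46 and 2.98 in wild type, or 3.01 ± 0.15 and 2.56 ± 0.39 (SD, n = 3 each). It was 0.46 larger in knockout, but the groups overlapped through wild-type library 3, which lay above knockout libraries 1 and 3. The shift was 0.29 without wild-type library 1 and 0.67 without wild-type library 3. No p-value is given, since the score combines genes chosen with earlier results known.

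**Figure D3:**
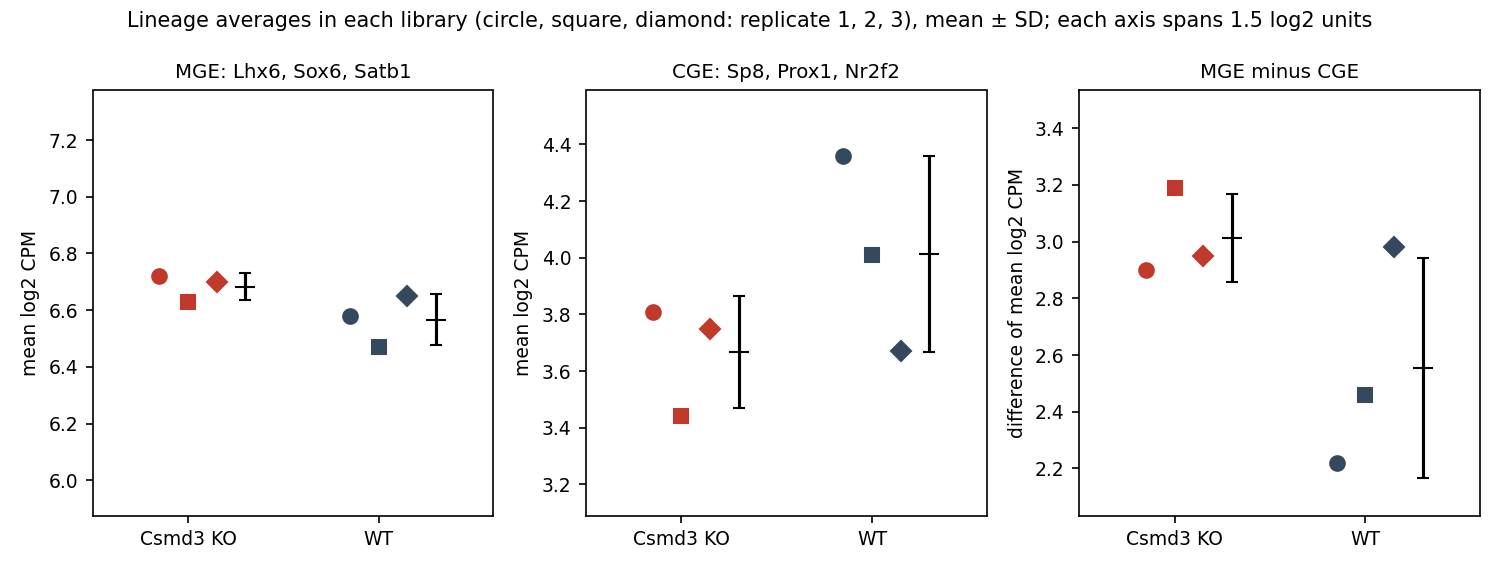
Mean log2 CPM of the MGE factors, of the CGE factors and their difference are plotted for each library, with knockout left of wild type and the mean ± SD beside the points. Each vertical axis spans the same number of log2 units. In the right panel wild-type replicate 3 lies among the knockout libraries, and wild-type replicates 1 and 2 lie below.

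Gene by gene, the shift was carried by Sox6 on the MGE side and Prox1 and Sp8 on the CGE side. Of the 9 MGE to CGE pairs, Sox6 over Prox1 differed most between genotypes (0.97), at a log2 ratio of 2.50 ± 0.17 in knockout and 1.53 ± 0.72 in wild type (SD, n = 3 each). Lhx6 over Sp8 differed less, at 3.61 ± 0.05 in knockout and 3.33 ± 0.09 in wild type, but without overlap. How often ratios of gene pairs separate in these data was not computed, while 29.1% of single tested genes did. Lhx6 over Nr2f2 was 1.78 ± 0.22 in knockout and 1.71 ± 0.37 in wild type. The 3 pairs with Satb1 and the 3 with Nr2f2 all overlapped between genotypes.

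The summed level of genes that make and package GABA was set beside the factors in each library. Whether this sum follows the amount of interneuron RNA was not tested. The summed level of Gad1 and Gad2, the enzymes of GABA synthesis, and Slc32a1, the vesicular GABA transporter, was 92.8, 78.4 and 89.6 CPM in knockout, against 115, 102 and 92.6 CPM in wild type. Gad1 was at 30.3 ± 0.943 CPM in knockout and 37.8 ± 4.19 CPM in wild type (log2 fold change -0.32, SE 0.10, adjusted p = 0.0937), and Slc32a1 at 20 ± 2.49 CPM in knockout and 25.7 ± 2.51 CPM in wild type (-0.37, SE 0.13, adjusted p = 0.122). An opposite-strand gene, Gm14205, overlaps 24.9% of the exon length of Slc32a1 and held 44 counts over all libraries. Gad2 (-0.12, adjusted p = 0.683) did not pass either, so 0 of these 3 were called by edgeR, DESeq2 or limma-voom, and Gad1 and Slc32a1 were lower at an unadjusted edgeR p of 0.05.

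Relative to that sum, 9 of the 10 factors overlapped between genotypes. Dlx1 stood at 117% ± 2.58 of the GABA gene sum in knockout and 123% ± 12.8 in wild type (SD, n = 3 each, as for the next values). Dlx2 stood at 36.5% ± 2.41 in knockout and 36.7% ± 6.95 in wild type, and Sp8 at 8.47% ± 0.874 in knockout and 9% ± 0.438 in wild type. The mean CPM of these 3 factors was thus lower in knockout by about as much as that of the GABA genes. Prox1 was at 12.4% ± 0.698 in knockout and 15.8% ± 4.66 in wild type, with overlapping libraries. Sox6 was the only factor of the 10 whose libraries did not overlap on this scale, where 26.9% of all tested genes lay higher in every knockout library and 29.9% did not overlap in either direction. It stood at 70.5% ± 9.59 in knockout and 45.5% ± 12.1 in wild type, 1.55 times as high.

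Among 11 tested of 14 listed genes that mark interneuron subtypes, 4 were called lower and 0 higher. Over all tested genes, 2.53% were called lower and 5.21% higher. The median log2 fold change of the 11 was -0.52. Which cells held these transcripts was not tested. Npy, the neuropeptide Y gene of MGE interneurons, was at 37.1, 30.5 and 33.5 CPM in knockout, against 63.8, 71.3 and 55.1 CPM in wild type (-0.91, SE 0.11, adjusted p = 0.00153), and kept its call with any 1 library left out. Sst, the somatostatin gene (-0.84, SE 0.19, adjusted p = 0.0276), Cck, the cholecystokinin gene (-0.85, SE 0.18, adjusted p = 0.0213), and Htr3a, the serotonin receptor subunit gene of CGE interneurons (-0.68, SE 0.13, adjusted p = 0.0122), fell as well. The calls of Sst and Cck were lost on leaving out any library except wild-type 3 (adjusted p up to 0.105 for Sst and 0.089 for Cck), and that of Htr3a without knockout library 3 (0.0642). Leaving out 1 library gave 1 to 4 lower genes in this list. Knockout libraries 2 and 3 held most of the choroid plexus transcripts. With both left out, 1 knockout library remained, so only effect sizes are given. The log2 fold changes were then -0.76 for Npy, -0.88 for Sst, -0.83 for Cck and -0.61 for Htr3a. The part of choroid plexus tissue in these changes was not tested. Whether the fall of a subtype gene differed from the change of its lineage factor was not tested.

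**Figure D4:**
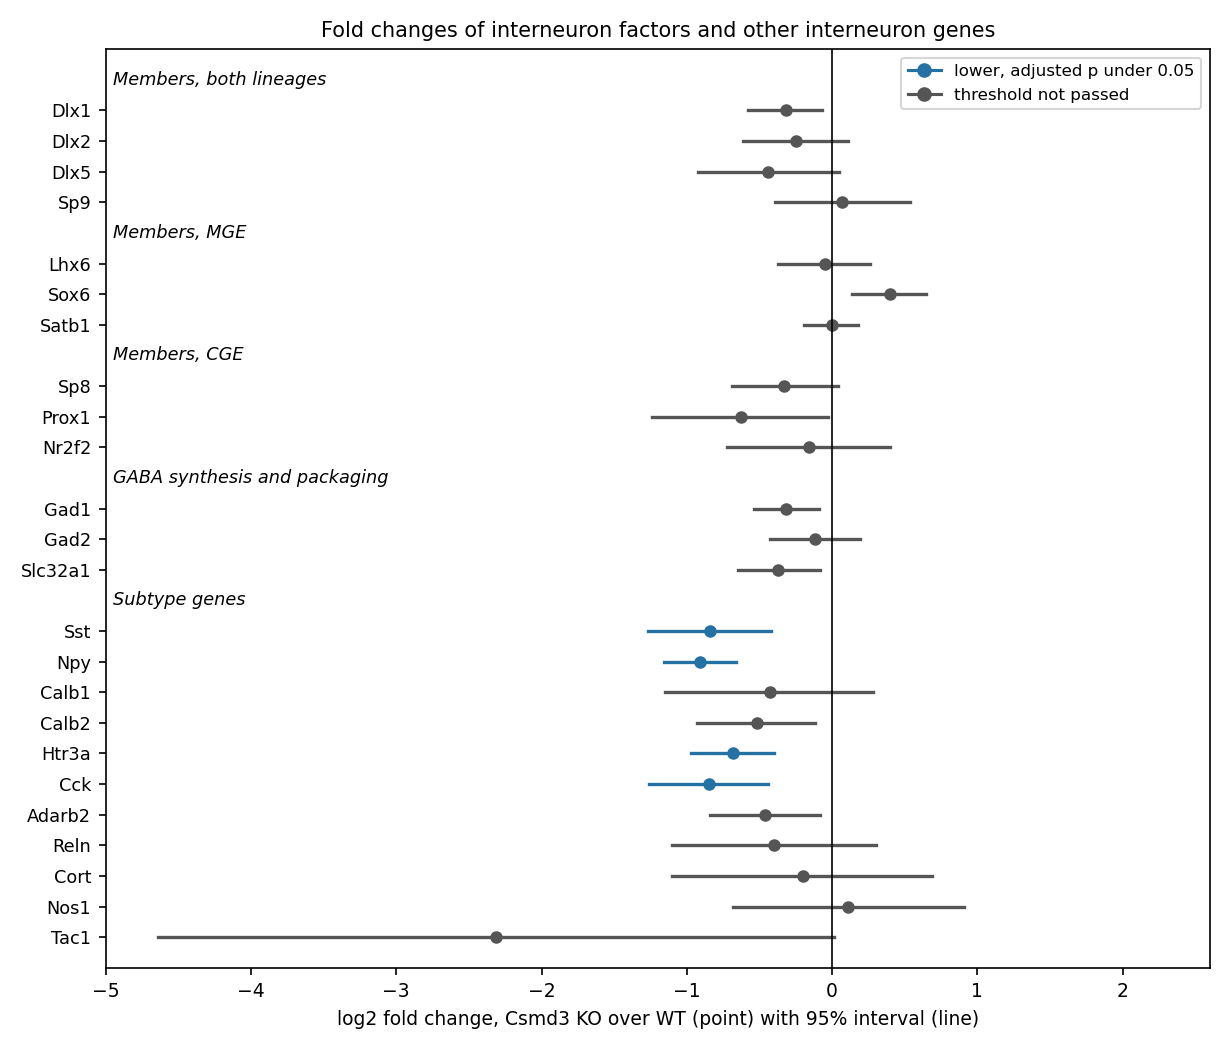
Points give log2 fold changes, knockout over wild type, and lines their 95% intervals, for the 10 factors by lineage, the GABA genes and the tested subtype genes. The 10 factors and the 3 GABA genes are grey, with the threshold not passed, while Sst, Npy, Htr3a and Cck are blue and lie between -0.91 and -0.68.

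Other transcription factors of the lineage gave few calls. Of 20 listed, 19 were tested, and 1 was called higher and 1 lower, where 5.21% of all tested genes were higher and 2.53% lower. The log2 fold changes of the 19 had a median of -0.18. DESeq2 and limma-voom each called 4 of them lower. Npas1, a bHLH-PAS factor of the MGE and CGE, was at 22.0 ± 0.306 CPM in knockout and 28.3 ± 1.89 CPM in wild type (SD, n = 3 each). It fell by 0.37 on the log2 scale (SE 0.10, adjusted p = 0.0498). The call was lost on leaving out any library except wild-type 3 (adjusted p up to 0.167). It was also lost under upper-quartile scaling (0.0516) and TMM computed without other-cell and strongly changed genes (0.0538). The same held for no filter (0.0636), the fit that was not robust (0.0574) and the replicate block (0.106). Zfhx3, a zinc finger homeobox factor, was at 5.88 ± 0.965 CPM in knockout and 3.03 ± 0.695 CPM in wild type (0.96, SE 0.22, adjusted p = 0.0296). This call was lost without knockout library 1 or 3 or wild-type library 1 or 3 (highest 0.114) and with the replicate block (0.0883). Just outside the threshold, and named after their values were seen, lay, among others, Npas3 (-0.56, adjusted p = 0.0512) and Etv1 (-0.55, adjusted p = 0.0574). Of 12 receptor and adhesion genes of migrating interneurons 0 passed with edgeR, DESeq2 or limma-voom (1 at an unadjusted edgeR p of 0.05), with a median log2 fold change of 0.00. Among them Plxna4 was at 470 ± 35.0 CPM in knockout and 533 ± 72.2 CPM in wild type, and Robo2 at 283 ± 20.4 CPM in knockout and 279 ± 56.4 CPM in wild type (SD, n = 3 each).

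Markers of the cortex and of the ventral forebrain, where several of these factors are also expressed, were both read. Emx1, a pallial factor, was at 65.0 ± 2.74 CPM in knockout and 65.4 ± 2.75 CPM in wild type, and of 10 cortical excitatory genes 1 fell and 0 rose. Nkx2-1, the factor of MGE progenitors, was at 0.311 ± 0.038 CPM in knockout and 0.85 ± 0.195 CPM in wild type (adjusted p = 0.0839), and Isl1, of striatal neurons, at 0.143 ± 0.128 CPM in knockout and 0.155 ± 0.269 CPM in wild type (SD, n = 3 each). Of 14 striatal markers 3 rose (Rarb, Ebf1 and Adora2a, at log2 fold changes of 2.22, 1.13 and 0.67) and 1 fell. An opposite-strand gene, Top2b, overlaps 34.1% of the exon length of Rarb. The 14 had sums of 119 to 132 CPM in knockout against 104 to 120 CPM in wild type, and their part in the levels of the factors was not tested. Csmd3 itself was lower but present, at 9.98 ± 0.294 CPM in knockout and 15 ± 1.72 CPM in wild type (log2 fold change -0.59, SE 0.13, adjusted p = 0.0233). This call was lost with any knockout library or wild-type library 1 left out (highest adjusted p = 0.101), so the call checks the labels weakly. The log2 fold change stayed between -0.67 and -0.52 with 1 library left out. Every knockout library lay below every wild-type library for Csmd3, as for 13.5% of all tested genes. Of 5 tested choroid plexus markers 1 rose (Aqp1), and the sum of all 7 listed was 9.55, 45.8 and 487 CPM in knockout libraries 1, 2 and 3, against 0.775 to 1.29 CPM in wild type.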

How the data were processed

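Bulk RNA sequencing of cortex gave 6 libraries, grouped by the genotype in the labels. Per the submitters' processing notes, HISAT2 2.0.5 and StringTie 1.3.4 were used with mm10, beside Trim Galore 0.4.4 and FastQC 0.11.9. The counting program, annotation release and strand setting were not stated there. Per the file headers, the deposited values are gene counts, and they were treated as estimated counts because whole numbers piled up at 4 (1298 genes in wild-type library 1, against 492 at 3 and 318 at 5). They needed no rounding. The counting precision is thus nearer that of the deposited value divided by 4. Names, positions and exon lengths came from GENCODE M21, which named 55141 of 55401 rows; promoter windows came from RefSeq (GRCm38.p6).

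filterByExpr chose the genes, and TMM-scaled counts were tested with edgeR 4.0.16 (robust quasi-likelihood F-test, genotype only) in R 4.3.3, with Benjamini-Hochberg adjustment over all genes tested. SE is the absolute log2 fold change over the square root of F, and 95% intervals use the fit's degrees of freedom. Log2 CPM used a prior count of 2. The fit was tested on simulated data. Alternatives were other scalings, DESeq2 1.42.0, limma-voom (limma 3.58.1), other filters, a replicate block, counts divided by 4 and libraries left out. The members and lists were chosen with earlier results of these data known. By rule, the 10 members, up to 4 called genes of each other list or else its most abundant 1 or 2, genes overlapping a member and Csmd3 could be named; some lists are given by counts or sums. Emx1, Isl1, Nkx2-1, Npas3 and Etv1 fall outside it and were named after their values were seen. Some list genes are not reported here.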

Additional observations from a re-analysis of the deposited data

How the results depend on the processing

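Over 18 alternatives, 0 of 10 factors were called in either direction with RLE or upper-quartile scaling, TMM without strongly changed genes, a CPM filter, a fit that was not robust, counts divided by 4 or the replicate block. With DESeq2, limma-voom, no filter and a threshold of 0.1, 1 factor (Sox6) was higher. Single omissions gave 0 to 1 higher and 0 to 1 lower factors, with both calls (Sox6 and Dlx1) on leaving out wild-type library 3; the cause was not tested. Over these fits Sox6 stayed between 0.32 and 0.54 and Prox1 between -0.83 and -0.27. The MGE minus CGE shift was 0.29 to 0.67. Over all genes, leaving out 1 library gave 472 to 1402 higher and 137 to 956 lower genes. DESeq2 gave 796 lower genes and a threshold of 0.1 gave 918. Without knockout libraries 2 and 3, 262 were higher and 43 lower, a fit with 1 knockout library that is assumed to vary like the rest.

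Over all tested genes, same-numbered libraries did not deviate together from their group means (correlations of 0.03, -0.00 and 0.00). No pairing is stated in the sources. These correlations cannot exclude it, since a shared litter that touched few genes would leave them near 0. With the replicate block 686 genes were higher and 255 lower, Sox6 was at 0.41 (adjusted p = 0.0886), and 2 subtype genes were lower.

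Fold changes near 0 turned sign. Leaving out 1 library gave -0.04 to 0.06 for Satb1, -0.15 to 0.08 for Lhx6, -0.08 to 0.31 for Sp9 and -0.23 to 0.01 for Gad2. Satb1 was at 0.00 with upper-quartile scaling and with the CPM filter, 0.01 with TMM without strongly changed genes, limma-voom or no filter, 0.06 without knockout library 3 or wild-type library 3, and 0.08 with knockout libraries 2 and 3 left out. Lhx6 was at 0.08 without knockout library 2, 0.05 without wild-type library 1 and 0.03 on dropping knockout libraries 2 and 3. Sp9 was at -0.01 without knockout library 1 and -0.08 without wild-type library 3. Nr2f2 was at 0.11 without knockout libraries 2 and 3. Gad2 was at 0.01 without knockout library 2 and 0.08 without knockout libraries 2 and 3. Counts of called genes in the subtype and other-factor lists under these settings were chosen after seeing the data. The scarce factors Sp8, Prox1 and Dlx5 rest on the fewest counts.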
